A study of Mus musculus with 9 samples.

Results

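The SLC25 family is the large family of carrier proteins that move metabolites, nucleotides and cofactors across the mitochondrial inner membrane. Its members were taken as every gene whose symbol is Slc25a followed by a number, which gave 47 genes of the 23440 gene rows used. The study measured liver RNA of C57Bl6 mice by sequencing, in 3 groups of 3 libraries each. The first group held aged mice (20 to 22 months) whose chow contained PD-0332991 during 2 weeks, at a dose the labels write as 450 mg/k. The second held aged mice (20 to 22 months) with no treatment, and the third held young mice (2 months) with no treatment. PD-0332991 is palbociclib, which blocks CDK4 and CDK6, kinases that drive cells into division. No genetic change is named for any group, and no group of young treated mice was analysed here. The labels call the libraries replicates without saying that each came from its own mouse, so the p-values rest on the scatter among libraries, part of which may be technical.

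The mitochondrial inner membrane is closed to most solutes, and most SLC25 carriers work as exchangers that let one metabolite in while another goes out. In liver these exchanges feed ATP export, phosphate uptake, the urea cycle, fatty acid oxidation, citrate export for lipid synthesis and the malate-aspartate shuttle. Many carriers come as pairs of close relatives, of which one serves most tissues and the other serves muscle, nerve or testis.

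Levels are given as TPM, a relative transcript abundance corrected for transcript length, so that levels of different genes can be set side by side. The 47 members summed to 1812 ± 87.5 TPM in livers of aged mice given PD-0332991, to 1759 ± 147 TPM in aged untreated livers and to 1775 ± 84.9 TPM in young untreated livers (SD, n = 3 each). The 3 groups overlapped in this sum, which made up 0.292% to 0.341% of the TPM listed in a library. Over the 9 libraries, 5 members averaged 100 TPM or more, 18 averaged 10 to 100 TPM, 12 averaged 1 to 10 TPM and 12 averaged under 1 TPM. The 5 most abundant members held 60.3% to 68.5% of the family's TPM in a library, and the 10 most abundant held 77.2% to 83.9%.

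Markers of hepatocytes, the main cell of liver, were high in every library. The summed level of 6 hepatocyte markers was 23203 to 26725 TPM in treated livers, 23672 to 28054 TPM in aged untreated livers and 26924 to 28025 TPM in young livers, while the albumin gene itself is listed at 0 in every library. Between 9543 and 9611 genes reached 1 TPM in treated libraries, 9794 to 9870 in aged untreated libraries and 9815 to 9989 in young libraries. Neutrophil markers (3 of 4 found) summed to 23.8 to 33.4 TPM in treated livers, 8.09 to 24.9 TPM in aged untreated livers and 2.61 to 3.55 TPM in young livers. Kupffer cell markers summed to 36.9 to 42.7 TPM in treated livers, 43.1 to 67.5 TPM in aged untreated livers and 47.9 to 80.3 TPM in young livers. Cholangiocyte markers summed to 8.15 to 13.7 TPM in treated livers, 10.3 to 22.2 TPM in aged untreated livers and 16.0 to 20.6 TPM in young livers. Erythroid markers summed to 60.1 to 81.9 TPM in treated livers, 70.9 to 155 TPM in aged untreated livers and 85.5 to 92.8 TPM in young livers. The part of these cell types in the results that follow was not tested, and in whole liver fewer cells of a type and less RNA per cell cannot be told apart.

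Genes were tested where at least 3 libraries reached 1 TPM, which kept 10161 genes and 36 of the 47 members. A fold change is a difference of means of log2(TPM + 0.5) with its standard error, a scale that understates the change of genes at low levels. A gene was called at a Benjamini-Hochberg adjusted p under 0.05 over all genes tested.

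In aged livers given PD-0332991, Slc25a47, Slc25a51 and Slc25a34 were higher in every treated library than in any of the 6 untreated libraries, and all 3 rose against aged untreated livers. No member fell past the threshold, except that without aged untreated replicate 3 Slc25a30 was called lower (-1.28, adjusted p = 0.00242). The 3 called members are 8.33% of the 36 tested, beside 1.45% of all genes tested (62 higher and 85 lower). That split of all genes turned to 119 higher and 55 lower with median-of-ratios scaling and to 88 higher and 56 lower with quantile normalization, while the members called stayed at 3 higher and 0 lower.

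Slc25a47 encodes a carrier made mainly in liver. It stood at 377, 320.1 and 377 TPM in treated livers, at 176, 130.0 and 178 TPM in aged untreated livers and at 209, 188 and 267 TPM in young livers. All 3 treated libraries lay above all 6 untreated ones, and the aged untreated libraries lay below the young ones. It rose by 1.16 ± 0.15 (log2, SE, adjusted p = 0.0143) in treated against aged untreated livers. The call was lost without treated replicate 3 (adjusted p = 0.056).

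Slc25a51 encodes the carrier that brings NAD+ into mitochondria. It stood at 26.2, 29.3 and 32.9 TPM in treated livers, against 17.1, 11.5 and 13.9 TPM in aged untreated livers and 13.2, 11.1 and 15.8 TPM in young livers. The treated libraries again lay above all others, and the aged untreated and young libraries overlapped. The rise against aged untreated livers was 1.04 ± 0.16 (log2, SE, adjusted p = 0.0161), and it missed the threshold without treated replicate 2 (adjusted p = 0.0716), without treated replicate 3 (adjusted p = 0.0678) and with no filter on low values (adjusted p = 0.0521).

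Slc25a34, a carrier with no substrate named here, stood far lower, at 4.53, 4.27 and 5.70 TPM in treated livers, 2.00, 1.14 and 2.38 TPM in aged untreated livers and 1.92, 1.91 and 1.28 TPM in young livers. The treated libraries did not overlap either untreated group. The rise against aged untreated livers was 1.22 ± 0.22 (log2, SE, adjusted p = 0.0215). This call was the least stable of the 3: it was lost without any 1 treated library (adjusted p of 0.0549, 0.0761 and 0.0955 without replicates 1, 2 and 3), without aged untreated replicate 2 (adjusted p = 0.0555), with only the 6 libraries compared (adjusted p = 0.0653) and with no filter (adjusted p = 0.059).

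**Figure D1:**
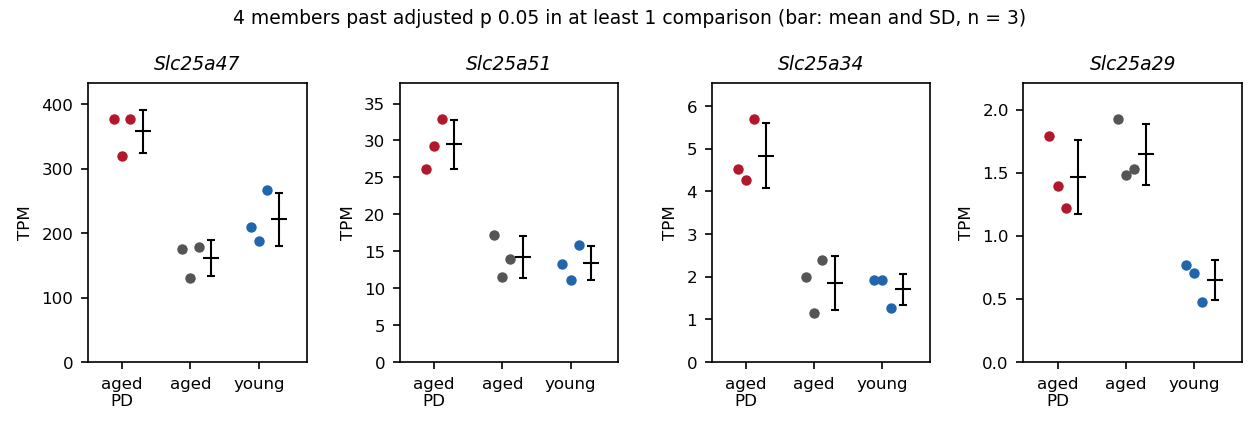
TPM of 4 of the members past the threshold in at least 1 comparison, with 1 point per library and the mean and SD beside each group (n = 3). Treated libraries of Slc25a47, Slc25a51 and Slc25a34 lie above all 6 untreated libraries. For Slc25a29 the treated and aged untreated libraries overlap and lie above the young ones. No young library of Slc25a29 reached 1 TPM, so it was tested only through its aged libraries.

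The bases before a transcript start of Slc25a47 and of Slc25a34 are shown because both members rose and because such stretches are where transcription factors bind. They are the 250 bases before the 1 start per gene in the RefSeq promoter table (GRCm38.p6), at chr12:108850879-108851128 on the plus strand for Slc25a47 and at chr4:141623835-141624084 on the minus strand for Slc25a34. Other transcripts start further upstream, so that the window of Slc25a47 lies inside the gene's full RefSeq span and that of Slc25a34 overlaps its first bases. Slc25a51, which also rose, has no window in the RefSeq promoter table. Capitals mark exact matches, on either strand, to AGGTCA, a core site of nuclear receptors, to CCAAT, a common promoter element, and to GGGCGG, which binds factors of the Sp family.
Slc25a47: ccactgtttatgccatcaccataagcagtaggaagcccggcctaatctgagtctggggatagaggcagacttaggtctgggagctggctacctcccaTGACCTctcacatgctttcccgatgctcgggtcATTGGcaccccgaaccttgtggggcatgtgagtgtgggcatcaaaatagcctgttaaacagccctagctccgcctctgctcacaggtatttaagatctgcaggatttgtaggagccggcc
Slc25a34: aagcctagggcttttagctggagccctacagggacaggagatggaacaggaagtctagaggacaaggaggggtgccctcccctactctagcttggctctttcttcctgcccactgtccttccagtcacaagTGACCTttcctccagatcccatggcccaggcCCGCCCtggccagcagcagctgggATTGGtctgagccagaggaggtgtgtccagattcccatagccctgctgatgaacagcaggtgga
Both windows hold 1 match to AGGTCA, read on the opposite strand as TGACCT, and 1 to CCAAT, and that of Slc25a34 also holds GGGCGG.

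Of 32851 RefSeq windows of this length, 14.0% hold AGGTCA, 33.9% hold CCAAT and 32.7% hold GGGCGG. The other motifs searched on both strands were CACGTG (6.02% of windows), TGACGTCA (1.55%), TTCGCGC (1.28%), TATAAA (12.4%) and a direct repeat of AGGTCA spaced by 1 base (0.033%), which contains AGGTCA itself. Among the 46 windows of 36 members, AGGTCA was found in 4, CCAAT in 21, GGGCGG in 32 and CACGTG in 8, while TGACGTCA was found in 2, TTCGCGC in 2 and TATAAA in 2. The direct repeat was in none of them. Besides Slc25a47 and Slc25a34, AGGTCA was found in the windows of Slc25a39 and Slc25a45. Their log2 fold changes in treated against aged untreated livers were -0.12 and -0.49, neither of them called. A match describes letters in the window and is no evidence of binding.

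Slc25a51 lies on chromosome 4 (45395923 to 45408917), Slc25a34 on chromosome 4 (141618819 to 141623891), Slc25a47 on chromosome 12 (108849833 to 108856815), all in GRCm38 coordinates of the RefSeq annotation. Slc25a51 shares 2.3% of its exon bases with the microRNA gene Gm25692, and Slc25a47 shares 0.2% with Mir345, in both cases on the same strand. Whether the library preparation kept strand is not given in the sources used here.

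Most other members, like most of all genes tested, stood slightly lower with the drug, and none of these member differences passed the threshold. Of the 36 members tested, 27 had a fold change below 0 in treated against aged untreated livers, with a median of -0.15, beside 66.7% of all genes below 0 and a median of -0.09. The 27 members are 75% of those tested. With median-of-ratios scaling 25 members (69.44%) were below 0, beside 48.65% of all genes. The medians were then -0.05 for the members and 0.01 for all genes. In this comparison 3 members lay wholly above the aged untreated libraries and 11 wholly below, in TPM as listed. Together they are 38.9% of those tested, beside 22.4% of all genes tested without overlap. Overlap was not examined under other scalings.

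Slc25a12 and Slc25a13 encode aralar and citrin, the aspartate-glutamate carriers of the malate-aspartate shuttle, of which citrin is the liver form. Slc25a12 stood at 3.24, 3.01 and 2.84 TPM in treated livers, against 4.27, 4.42 and 4.35 TPM in aged untreated livers and 3.91, 3.83 and 4.98 TPM in young livers. The treated libraries lay below all others, with a difference of -0.46 ± 0.13 from aged untreated livers (log2, SE) that did not pass (adjusted p = 0.109). Slc25a13 was far more abundant, at 41.9, 43.5 and 40.1 TPM in treated livers, 43.5, 49.1 and 52.9 TPM in aged untreated livers and 52.3, 47.7 and 54.9 TPM in young livers. Its treated libraries lay below the others, though the highest treated value (43.48 TPM) and the lowest aged untreated one (43.55 TPM) were nearly equal. The difference from young livers was -0.30 (log2, adjusted p = 0.0975).

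Slc25a23 encodes a calcium-regulated ATP-Mg/phosphate carrier, and it stood at 57.8, 54.7 and 59.8 TPM in treated livers, 65.5, 68.9 and 75.0 TPM in aged untreated livers and 70.5, 65.6 and 62.9 TPM in young livers. All treated libraries lay below all untreated ones, with a difference of -0.28 ± 0.09 from aged untreated livers (log2, SE, adjusted p = 0.153). Slc25a45, a carrier with no substrate named here, stood at 15.3, 13.3 and 13.9 TPM in treated livers, 23.1, 17.0 and 20.6 TPM in aged untreated livers and 18.4, 21.4 and 15.9 TPM in young livers. It had the same pattern and the lowest p among the members below 0, with a difference of -0.49 ± 0.14 from aged untreated livers (log2, SE, adjusted p = 0.0995).

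The mitoferrins Slc25a37 and Slc25a28 bring iron into mitochondria. Slc25a37 stood at 6.70, 7.18 and 7.22 TPM in treated livers, 9.06, 11.5 and 9.80 TPM in aged untreated livers and 10.04, 5.97 and 7.70 TPM in young livers. Slc25a28 stood at 9.22, 10.3 and 10.1 TPM in treated livers, 11.5, 11.7 and 13.3 TPM in aged untreated livers and 11.2, 10.1 and 8.85 TPM in young livers. For both, the treated libraries lay below the aged untreated ones and overlapped the young ones. The differences from aged untreated livers were -0.49 ± 0.17 for Slc25a37 (adjusted p = 0.155) and -0.29 ± 0.12 for Slc25a28 (log2, SE, adjusted p = 0.222). Slc25a37 is the form that red cell precursors depend on, and the erythroid markers given above ranged more widely in aged untreated livers than in the other groups. Their part in it was not tested.

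Of the members, 1 rose with age and none fell past the threshold. Without aged untreated replicate 3, 2 were called higher and 3 lower, the lower ones being Slc25a11 (-0.36, adjusted p = 0.0469), Slc25a30 (-0.72, adjusted p = 0.0284) and Slc25a42 (-0.63, adjusted p = 0.0169). Slc25a29, a carrier of basic amino acids such as arginine and lysine, rose in aged against young untreated livers. The 1 called member is 2.78% of the 36 tested, beside 1.1% of all genes tested (66 higher and 46 lower). It stood at 1.93, 1.49 and 1.53 TPM in aged untreated livers and at 0.771, 0.706 and 0.474 TPM in young livers, with 1.79, 1.40 and 1.22 TPM in treated livers. No young library reached the lowest aged one. The rise was 0.90 ± 0.18 (log2, SE, adjusted p = 0.0430). Slc25a29 entered the test only through its aged libraries, since no young library reached 1 TPM. The call was lost without any 1 young library (adjusted p of 0.103, 0.102 and 0.144 without replicates 1, 2 and 3), without aged untreated replicates 1 (adjusted p = 0.146) and 2 (adjusted p = 0.0784), with only the 6 libraries compared (adjusted p = 0.0945) and with no filter (adjusted p = 0.0679).

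Slc25a39 encodes the main carrier of glutathione into mitochondria and was the second most abundant member. It stood at 312, 277 and 331 TPM in aged untreated livers and at 236, 241 and 243 TPM in young livers, with 285, 274 and 283 TPM in treated livers. All aged libraries, treated or not, lay above all young ones. The difference between aged untreated and young livers was 0.35 ± 0.09 (log2, SE) and did not pass (adjusted p = 0.0947).

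In aged against young untreated livers, 5 members (among them Slc25a22, Slc25a28, Slc25a29 and Slc25a39) lay wholly above the young libraries and 2 (Slc25a30 and Slc25a47) wholly below, together 19.4% of those tested, beside 18.4% of all genes. The share of members without overlap was near that of all genes. The median fold change of the members was 0.03, beside -0.01 for all genes, and 16 of 36 (44.44%) were below 0, beside 52.1% of all genes. Slc25a47 differed by -0.45 ± 0.15 (log2, SE, adjusted p = 0.199) and Slc25a28 by 0.27 ± 0.12 (adjusted p = 0.317).

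Slc25a30 is a relative of the uncoupling proteins, and its aged untreated libraries stood apart from each other. It stood at 12.7, 16.4 and 1.64 TPM in aged untreated livers and at 29.6, 20.0 and 23.7 TPM in young livers, with 6.23, 4.96 and 5.76 TPM in treated livers. The lowest value of all was aged untreated replicate 3, below every treated library. The difference of aged untreated from young livers was -1.66 ± 0.74 (log2, SE, adjusted p = 0.363).

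In treated aged against young livers, 5 members rose and none fell past the threshold. Under 4 alternatives 1 or 2 members were called lower. Among the 5 were Slc25a51 (1.12 ± 0.16, adjusted p = 0.0043), Slc25a34 (1.28 ± 0.22, adjusted p = 0.00884), Slc25a47 (0.71 ± 0.15, adjusted p = 0.0225) and Slc25a29 (0.77 ± 0.18, adjusted p = 0.0302), each a log2 fold change with its SE. The 5 called members are 13.9% of the 36 tested, beside 6.88% of all genes tested (263 higher and 436 lower). Slc25a29, counted among the 5, entered the test only through its aged libraries, since no young library reached 1 TPM. The split of all genes turned with the scaling, to 386 higher and 228 lower with median-of-ratios scaling, which moved the median of all genes by 0.12, and to 308 higher and 310 lower with quantile normalization. The drug and age cannot be told apart in this comparison, and it shares its libraries with the other 2 comparisons.

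Of these rises against young livers, those of Slc25a51 and Slc25a34 passed under each alternative in which the gene was tested. Slc25a34 was itself under the filter at 5 TPM. The call of Slc25a47 was lost without young replicates 1 or 2 or without any 1 treated library (adjusted p of 0.0539 to 0.0869) and with no filter (adjusted p = 0.0526). The call of Slc25a29 was lost without any 1 young or treated library (adjusted p of 0.0544 to 0.108).

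**Figure D2:**
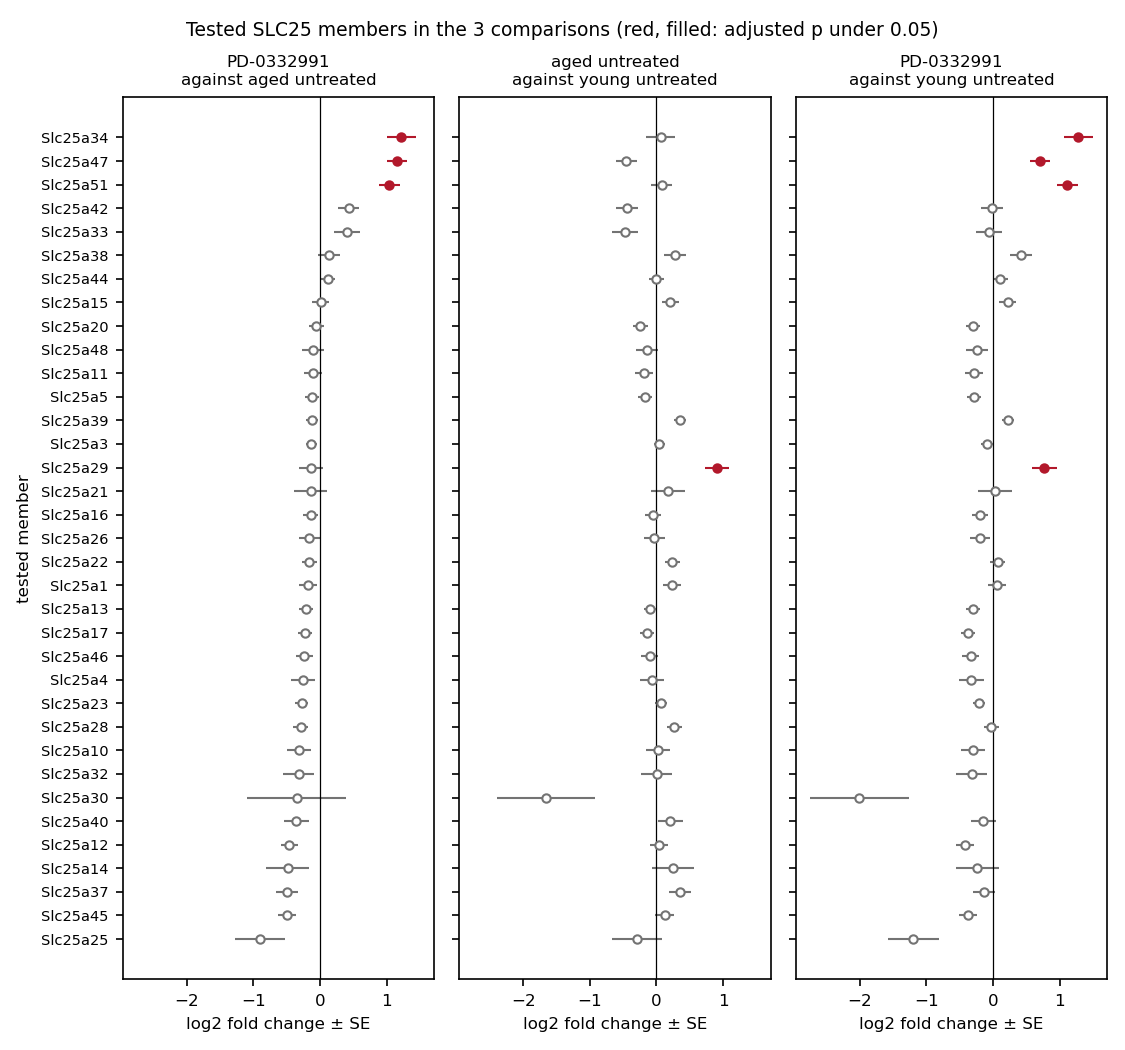
Log2 fold change of 35 of the tested members with its SE, in the 3 comparisons (PD-0332991 against aged untreated, aged untreated against young, PD-0332991 against young). Filled red points are at an adjusted p under 0.05: 3, 1 and 4 of the members drawn, all above 0.

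In treated against young livers 6 members lay wholly above and 12 wholly below the young libraries, 50% of those tested, beside 33.9% of all genes. The median of the members was -0.17, beside -0.10 for all genes, and with median-of-ratios scaling these were -0.07 and 0.02. Slc25a17, a nucleotide and cofactor carrier that sits in the membrane of peroxisomes rather than mitochondria, stood at 24.1, 25.4 and 26.2 TPM in treated livers, 30.6, 29.1 and 29.0 TPM in aged untreated livers and 29.3, 32.1 and 37.3 TPM in young livers. Its treated libraries lay below all others, and its difference from young livers was just outside the threshold (-0.37 ± 0.10, log2, SE, adjusted p = 0.0542). It was called lower under 3 of 16 alternatives (lowest adjusted p = 0.0444). Slc25a20, the carnitine-acylcarnitine carrier that brings fatty acids in for oxidation, stood at 51.1, 48.1 and 49.7 TPM in treated livers, 45.0, 51.5 and 59.3 TPM in aged untreated livers and 63.9, 55.9 and 64.2 TPM in young livers. The treated libraries lay below the young ones (-0.30, log2, adjusted p = 0.126) and among the aged untreated ones.

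Slc25a46, an outer membrane protein of mitochondrial dynamics, stood at 4.88, 4.99 and 4.49 TPM in treated livers, 5.28, 6.78 and 5.25 TPM in aged untreated livers and 5.86, 6.06 and 6.63 TPM in young livers. Its treated libraries were the 3 lowest, with a difference of -0.34 from young livers (log2, adjusted p = 0.134). Slc25a30 differed by -2.01 ± 0.74 from young livers (log2, SE, adjusted p = 0.155), with no overlap. When only the 6 treated and young libraries were fitted, which leaves out the scattered aged untreated group, its adjusted p was 7.38e-06.

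The other carriers among the 10 most abundant passed in no comparison. Slc25a5, the ADP/ATP exchanger that hands ATP to the cytosol, stood at 285, 236 and 244 TPM in treated livers, 258, 286 and 282 TPM in aged untreated livers and 322, 279 and 332 TPM in young livers. Slc25a3, which imports the phosphate for ATP synthesis, stood at 174, 163 and 174 TPM in treated livers, 177, 186 and 195 TPM in aged untreated livers and 178, 181 and 184 TPM in young livers. The treated libraries of Slc25a3 were the 3 lowest by a narrow margin, and those of Slc25a5 overlapped both other groups.

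Slc25a1 exports citrate and stood at 151, 124 and 144 TPM in treated livers, 139.6, 142 and 196 TPM in aged untreated livers and 131, 143 and 127 TPM in young livers. Slc25a10, the dicarboxylate carrier, stood at 44.7, 33.9 and 43.7 TPM in treated livers, 43.0, 42.6 and 70.4 TPM in aged untreated livers and 53.2, 49.8 and 46.7 TPM in young livers. In both, aged untreated replicate 3 was the highest of the 9 libraries, and the treated and aged untreated groups overlapped.

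Slc25a15 carries ornithine for the urea cycle and stood at 75.3, 82.2 and 84.0 TPM in treated livers, 83.4, 65.8 and 92.4 TPM in aged untreated livers and 62.5, 75.3 and 70.0 TPM in young livers. Slc25a22, a glutamate carrier, stood at 57.3, 53.3 and 68.4 TPM in treated livers, 62.2, 72.5 and 65.2 TPM in aged untreated livers and 51.9, 57.8 and 59.8 TPM in young livers. The aged untreated libraries of Slc25a22 lay above the young ones, and the treated libraries overlapped both groups.

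Slc25a42, a carrier of coenzyme A, and Slc25a25, an ATP-Mg/phosphate carrier, were picked out after their values were seen. Slc25a42 stood at 30.3, 35.5 and 33.5 TPM in treated livers, 24.1, 19.1 and 31.6 TPM in aged untreated livers and 38.0, 32.1 and 30.6 TPM in young livers. Slc25a25 stood at 16.9, 26.0 and 41.0 TPM in treated livers, 45.0, 37.6 and 70.6 TPM in aged untreated livers and 72.9, 40.7 and 74.9 TPM in young livers. In treated against aged untreated livers the groups overlapped, and the differences were 0.43 for Slc25a42 (adjusted p = 0.198) and -0.90 for Slc25a25 (log2, adjusted p = 0.261). Without aged untreated replicate 3, the difference of Slc25a42 was 0.61 and was called (adjusted p = 0.0287).

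**Figure D3:**
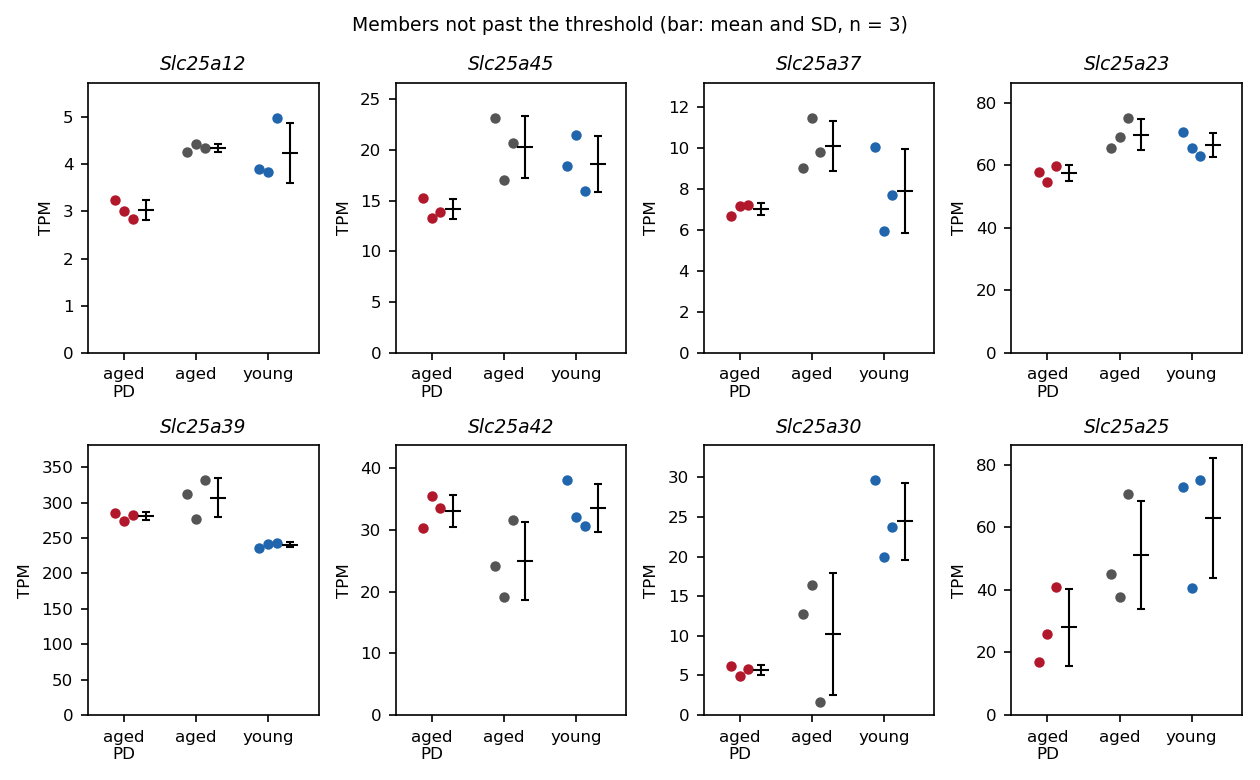
TPM of 8 members that passed in no comparison, with 1 point per library and the mean and SD beside each group (n = 3). Treated libraries of Slc25a12, Slc25a45, Slc25a37 and Slc25a23 lie below all aged untreated ones, and Slc25a30 varies between 1.64 and 16.4 TPM among aged untreated libraries.

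The other 12 tested members passed in no comparison, and they are given by their range over the 9 libraries. Among carriers of organic acids, Slc25a11 (oxoglutarate-malate exchange) lay at 26.8 to 40.7 TPM and Slc25a21 (oxoadipate) at 2.01 to 4.96 TPM. Slc25a38 (a glycine carrier), Slc25a44 (branched-chain amino acids) and Slc25a48 (choline) lay at 9.89 to 18.6, 13.1 to 16.8 and 1.79 to 3.18 TPM. Cofactor carriers ran over a wide span, with Slc25a16 at 11.2 to 15.7 TPM, Slc25a33 at 7.98 to 16.8 TPM, Slc25a26 at 2.97 to 4.49 TPM, Slc25a32 at 1.34 to 3.16 TPM and Slc25a40 at 0.686 to 1.45 TPM. Slc25a4, the muscle form of the ADP/ATP exchanger, lay at 3.39 to 6.21 TPM, and Slc25a14, a relative of the uncoupling proteins, at 0.574 to 2.44 TPM.

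By substrate class, the 6 tested adenine nucleotide carriers had fold changes of -0.90 to 0.43 in treated against aged untreated livers, and of -1.19 to -0.02 in treated against young livers, with none called. The 8 tested amino acid carriers ran between -0.46 and 0.13 against aged untreated livers, with a median of -0.11. The 8 tested cofactor carriers ran between -0.36 and 1.04, with a median of -0.13, and Slc25a51 set the upper end.

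The remaining 11 members did not pass the filter and were not tested. Slc25a35 reached 1.47 TPM in its highest library, and the other 10 never reached 1 TPM. The highest values were 0.967 TPM for Slc25a27, 0.502 TPM for Slc25a2, 0.379 TPM for Slc25a36, 0.314 TPM for Slc25a24, 0.193 TPM for Slc25a53, 0.182 TPM for Slc25a18 and 0.0750 TPM for Slc25a43. Slc25a31, the testis form of the ADP/ATP exchanger, was above 0 only in aged untreated replicate 1 (0.160 TPM), and Slc25a41 and Slc25a54 are listed at 0 in every library.

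Within pairs of close relatives, 1 form held most of the transcripts. Slc25a5 made up 97.8% to 98.9% of its pair with Slc25a4, Slc25a39 made up 99.6% to 99.8% of its pair with Slc25a40, and Slc25a13 made up 91.1% to 93.5% of its pair with Slc25a12. The mitoferrins were nearly even, with Slc25a28 at 50.5% to 62.9% of the pair. The share of Slc25a34 in its pair with Slc25a35 was 90.4% to 95.6% in treated livers, 61.8% to 85.3% in aged untreated livers and 64.1% to 77.1% in young livers, and the treated libraries did not overlap the others. This share is built from the Slc25a34 values given above, so it is no separate result. Slc25a35 was under the filter, at 0.195 to 1.47 TPM. It shares 31.3% of its exon bases with Rangrf on the opposite strand, so its own level is uncertain. Reads of close relatives may also be split between them.

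Of the 11 lists of genes that work beside the carriers, 2 held called genes in treated against aged untreated livers. They were the regulators of mitochondrial genes (1 higher and 1 lower of 4 tested) and the carnitine shuttle enzymes (1 higher of 3 tested). Of all genes tested 1.45% were called. The lists were chosen with earlier results of these data known, so these calls are no independent support. Ppara, the nuclear receptor of fatty acid oxidation, stood at 20.0, 22.4 and 19.8 TPM in treated livers, 9.83, 9.83 and 13.8 TPM in aged untreated livers and 21.3, 19.5 and 19.7 TPM in young livers. It rose by 0.88 ± 0.13 with the drug (log2, SE, adjusted p = 0.0158), and in aged untreated against young livers it fell by 0.84 (adjusted p = 0.0144). The treated and young libraries overlapped, and the aged untreated ones lay below both.

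Cpt1a makes the acylcarnitines that Slc25a20 carries. It stood at 53.4, 48.8 and 49.3 TPM in treated livers, 31.6, 35.0 and 31.7 TPM in aged untreated livers and 44.9, 40.0 and 45.1 TPM in young livers, and it rose by 0.62 ± 0.09 in treated against aged untreated livers (log2, SE, adjusted p = 0.0158). Esrra, a nuclear receptor of mitochondrial genes, stood at 8.09, 7.39 and 7.77 TPM in treated livers, 14.8, 11.9 and 13.3 TPM in aged untreated livers and 10.8, 12.4 and 10.3 TPM in young livers. It fell by 0.74 against aged untreated livers (log2, adjusted p = 0.0161). The calls of Ppara, Cpt1a and Esrra were lost without treated replicate 2 or 3 and with only the 6 libraries compared (adjusted p of 0.0505 to 0.0716), and that of Ppara with age without aged untreated replicate 1 or young replicates 1 or 2 (adjusted p of 0.0562 to 0.0864).

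Against young livers, Esrra fell by 0.50 (log2, adjusted p = 0.0303). Got1, the cytosolic aspartate aminotransferase of the malate-aspartate shuttle, rose by 0.59 (adjusted p = 0.0394), at 118, 91.2 and 109 TPM in treated livers, 112, 81.8 and 82.2 TPM in aged untreated livers and 59.3, 74.3 and 77.4 TPM in young livers. Both calls were lost under 9 of 16 alternatives, and no other listed gene was called in aged untreated against young or in treated against young livers.

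**Figure D4:**
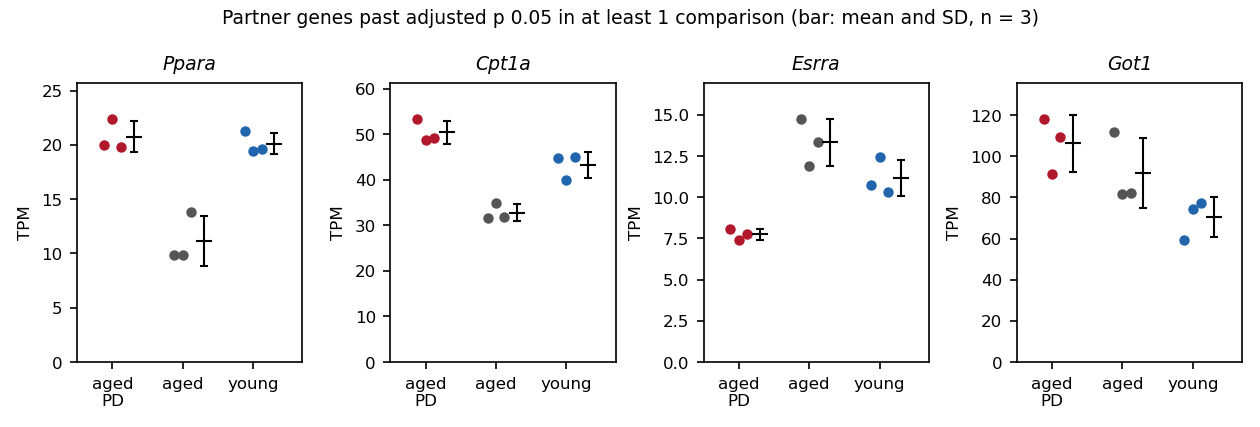
TPM of 4 genes that work with the carriers and passed in at least 1 comparison, with 1 point per library and the mean and SD beside each group (n = 3). Ppara and Cpt1a are lowest in aged untreated livers, Esrra is lowest in treated livers, and Got1 is lowest in young livers.

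In treated against aged untreated livers, the other 9 lists held no called gene. Their directions stand beside a shift of all genes tested, of which 66.7% were below 0, and 48.65% with median-of-ratios scaling. All 12 respiratory chain and ATP synthase subunits tested were below 0 (median -0.20, and 10 of 12 with median-of-ratios scaling), among them Atp5a1 (-0.24, adjusted p = 0.161) and Sdha (-0.23, adjusted p = 0.2205). All 6 urea cycle enzymes were below 0 under each scaling (median -0.17), with the lowest p for Asl (-0.24, adjusted p = 0.264). Of 12 genes of the TIM22 machinery that inserts carriers into the inner membrane, 9 were below 0 (median -0.13, and 6 with median-of-ratios scaling), and the lowest p belonged to Timm10 (-0.57, adjusted p = 0.0654) and Timm8a1 (-0.44, adjusted p = 0.114).

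Among 13 tested inner membrane transporters outside the family, 12 were below 0 (9 with median-of-ratios scaling), and among 8 haem synthesis enzymes 5 were below 0 under each scaling, with Alad at -0.47 (adjusted p = 0.0930). All 3 outer membrane porins and all 3 tested family relatives under other symbols were below 0, and 2 of 3 in each list were with median-of-ratios scaling. Ucp2, among these relatives, differed by -0.65 (adjusted p = 0.212). The 5 genes of citrate export and use were all below 0, with Cs at -0.29 (adjusted p = 0.174), but only 1 was with median-of-ratios scaling. Of 4 malate-aspartate shuttle enzymes 3 were below 0, and none was with median-of-ratios scaling. All genes tested had a median of -0.09, which this scaling moved to 0.01.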

How the data were processed

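Liver RNA of 9 libraries was sequenced with paired ends after a TruSeq preparation, per the labels. The submitters' processing notes name kallisto and the mm10 build, with no version, and the authors deposited 1 table of TPM per gene for each library. TPM is scaled to a fixed sum and keeps no depth, so depth is unknown and no counting interval can be given. The TPM listed per library did not reach that fixed sum and differed between libraries. It ran from 530575 in young untreated replicate 1 to 576173 in young untreated replicate 2, which is 53.1% to 57.6% of the fixed sum. Which transcripts hold the rest was not tested. Each table held 23444 rows, and 4 rows with repeated symbols were left out.

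TPM was tested with limma 3.58.1 (R 4.3.3) on log2(TPM + 0.5), with an intensity trend and robust variances, for the 10161 genes that reached 1 TPM in 3 or more libraries. All 9 libraries shared 1 fit, tests were two-sided, and p-values were adjusted by Benjamini-Hochberg over all genes tested. The procedure was run on simulated data, with noise drawn independently for each gene and library. These held no shift between libraries and no outlying library. They therefore say nothing on calls that moved with the scaling or with a library left out. The alternatives were pseudocounts of 0.1 and 1, no filter, a filter at 5 TPM, 3 other scalings, only the 6 libraries compared, the replicate number as a block, no trend and robust variance, and leaving out each library. Values per library are given for called members, for members with an unadjusted p under 0.05 and no overlap between groups, and for the 10 most abundant members. Gene positions and upstream sequences come from RefSeq (GRCm38.p6), to which all 47 members matched, and exon overlaps from GENCODE M21. The members, partner lists and marker lists were chosen with earlier results of these data known. Counts cover all members, of which 1 is not reported here by name.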

Additional observations from a re-analysis of the deposited data

How the results depend on the processing

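The members called in treated against aged untreated livers numbered 3, with 1 called without a filter and 0 to 5 when a library was left out. The count of 0 came without treated replicate 3 (limma, 9 members at an unadjusted p under 0.05), that of 1 without treated replicate 2 and that of 5 (4 higher and 1 lower) without aged untreated replicate 3. In aged untreated against young livers 1 was called, with 0 without a filter and with only the 6 libraries compared (limma, 8 and 5 members at an unadjusted p under 0.05), and 0 to 5 when a library was left out, the 5 (2 higher and 3 lower) without aged untreated replicate 3 and 0 without any other library. At 5 TPM 0 were called (limma, 6 at an unadjusted p under 0.05), since Slc25a29 was itself under that filter. In treated against young livers 5 were called, with 3 without a filter, 7 with only the 6 libraries (5 higher and 2 lower), 6 with median-of-ratios scaling and 2 to 3 when a library was left out. In this comparison 1 member was called lower at 5 TPM, 1 after rescaling to the same listed sum and 1 (Slc25a25) with the replicate block.

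All genes called in treated against aged untreated livers numbered 147, with 29 without a filter, 25 with only the 6 libraries compared and 7 to 392 when a library was left out. In aged untreated against young livers they numbered 112, with 62 without a filter, 49 with only the 6 libraries, 66 without trend and robust variance and 16 to 696 with a library left out. In treated against young livers they numbered 699, with 1282 with only the 6 libraries and 153 to 475 with a library left out. The lowest counts came without treated replicate 2 or young replicate 1, the counts of 392 and 696 without aged untreated replicate 3. Some alternatives hold fewer libraries or more genes tested, and the cause of these changes in count was not tested. The members followed across the alternatives kept their direction under every alternative run.

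The labels do not say that replicate numbers pair the libraries. Same-numbered deviations from the group means correlated at -0.22 to 0.166. The best match of a library in another group had the same number in 9 of 18 comparisons. With 3 libraries per group these values cannot exclude a pairing. With the number as a block, 2, 1 and 5 members were called in the 3 comparisons, and 60, 91 and 492 genes. Among the members named, the block lost the call of Slc25a34 in treated against aged untreated livers (adjusted p = 0.0549).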

Other observations

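Some members are neighbours in the genome. Slc25a47 and Slc25a29 lie 13956 bases apart on chromosome 12 on opposite strands by their RefSeq spans, and 162 bases apart by their GENCODE M21 spans. The GENCODE span of Slc25a47 starts further upstream than its RefSeq span. Slc25a47 rose in treated against aged untreated livers, while Slc25a29 had 1.47 ± 0.291 TPM in treated livers and 1.65 ± 0.243 TPM in aged untreated livers (SD, n = 3 each), with overlapping libraries. Against young livers both rose in the treated group. In aged untreated against young livers Slc25a29 differed by 0.90 (log2, called) and Slc25a47 by -0.45 (log2, not called). No young library of Slc25a29 reached 1 TPM, so its calls against young livers rest on a gene tested only through its aged libraries. In 2 other neighbouring pairs, 1 member was expressed and the other was near or at 0. By RefSeq spans, Slc25a23 lies 2056 bases from Slc25a41, which is listed at 0, and Slc25a5 lies 18289 bases from Slc25a43, whose highest value was 0.0750 TPM. Slc25a24 and Slc25a54, 6566 bases apart, were both under the filter.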
